A study of Homo sapiens with 6 samples.

Results

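The 7 genes CDKN2A, CDKN2B, CDKN2C, CDKN2D, CDKN1A, CDKN1B and CDKN1C encode the INK4 and CIP/KIP inhibitors of cyclin-dependent kinases (CDKs). They were taken by gene symbol from a table of 59050 entries, in which each stood on 1 entry, and all 7 reached the mean of 1 TPM (a transcript level corrected for length and library total) needed for testing. The cells were human foreskin fibroblasts (HFF), infected at about passage 18 with the viral vector pLNC ER:RAS (G12V) and selected with 200 µg/ml neomycin, and whether the replicates come from 1 or several selected lines is not given. In these cells 100 nM 4-hydroxytamoxifen (4-OHT) switches on oncogenic H-RAS, and 4-OHT cells were taken as senescent after a week. The controls are labelled DMSO, the usual solvent of 4-OHT, with neither their vector nor their time of harvest given, and each group held 3 libraries of total RNA. The effects of 4-OHT itself, of active RAS and, should the controls lack it, of the vector cannot be told apart.

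The proteins of both families stop the cell cycle before DNA is copied. INK4 proteins, built of ankyrin repeats, bind CDK4 and CDK6 and keep D-type cyclins from activating them. CIP/KIP proteins bind whole cyclin-CDK complexes, above all those of CDK2, and p21 and p27 can also help D-type cyclins assemble with CDK4. With the kinases inhibited, the retinoblastoma protein RB stays bound to E2F transcription factors and S-phase genes are held silent. CDKN2A is a textbook marker of senescent fibroblasts, and CDKN1A is known to be induced by DNA damage.

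In 4-OHT, 3 of the 7 inhibitor genes rose and 4 fell. CDKN2B, CDKN1A and CDKN2A were higher by 24.3-fold, 2.44-fold and 2.04-fold, and CDKN2C, CDKN1C, CDKN1B and CDKN2D were lower by 8.58-fold, 5.24-fold, 3.52-fold and 2.3-fold (ratios of group means). Each family held members of both directions. Among all 15272 genes tested 49.6% were called, 19.8% as higher and 29.9% as lower, so that a call alone does not set a gene apart here. The 4-OHT and DMSO libraries did not overlap for any of the 7, as was the case for 59% of all genes tested.

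CDKN2A and CDKN2B lie side by side on the reverse strand of chromosome 9 (GRCh38, GENCODE 29), CDKN2A from 21967753 to 21995301 and CDKN2B from 22002903 to 22009363, with 7601 bases between them. They arose by duplication, and their coding sequences still match at 313 of 361 aligned positions (86.7%), with a longest identical run of 80 bases. How the authors' pipeline split reads between such stretches is not given in the sources used here. CDKN2A further has 2 start sites in RefSeq, 20467 bases apart: the upstream one gives the ARF transcript, whose product binds MDM2, and the downstream one gives p16, the INK4 inhibitor. The table has 1 entry for CDKN2A, so the ARF and p16 transcripts are not parted in it.

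The 250 bases before the start sites of the neighbours that rose are printed here from RefSeq (GRCh38.p14), 5′ to 3′ on the reverse strand. Capitals mark GGGCGG, the GC box bound by SP1 and Kruppel-like factors, and CAGAC, a short SMAD box, on either strand. The windows are chr9:22009306-22009555 for CDKN2B, chr9:21995325-21995574 for the ARF start and chr9:21974858-21975107 for the p16 start.
CDKN2B: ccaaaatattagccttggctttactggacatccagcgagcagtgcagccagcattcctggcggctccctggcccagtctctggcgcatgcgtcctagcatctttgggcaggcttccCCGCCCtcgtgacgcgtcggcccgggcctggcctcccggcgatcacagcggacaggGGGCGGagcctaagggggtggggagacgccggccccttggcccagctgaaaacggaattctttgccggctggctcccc
CDKN2A, ARF start: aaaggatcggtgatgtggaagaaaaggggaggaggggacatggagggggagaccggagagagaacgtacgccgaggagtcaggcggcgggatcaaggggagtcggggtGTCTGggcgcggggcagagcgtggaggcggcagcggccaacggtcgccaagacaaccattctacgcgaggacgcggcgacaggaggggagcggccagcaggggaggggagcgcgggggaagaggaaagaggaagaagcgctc
CDKN2A, p16 start: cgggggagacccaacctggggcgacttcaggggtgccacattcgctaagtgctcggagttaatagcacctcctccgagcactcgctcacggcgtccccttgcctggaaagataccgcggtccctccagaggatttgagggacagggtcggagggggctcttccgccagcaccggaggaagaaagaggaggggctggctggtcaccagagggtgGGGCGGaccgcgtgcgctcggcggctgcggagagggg
The CDKN2B window holds 2 GC boxes and the p16 window 1, while the ARF window holds none and has 1 CAGAC. RefSeq gave 9 such windows for 6 of the 7 genes, and CDKN1C had no entry. Searched on both strands, with overlapping matches of a motif each counted, GGGCGG was present in 7 of the 9 windows against 42.5% of 34943 windows of all genes. CDKN2C and CDKN2A gave more than 1 of the 9 windows each. The 9 windows held from 45.6% to 77.2% G and C, against a median of 58% over all windows. GGGCGG is made of these bases alone, and windows of like G and C content were not compared. The motif CAGAC was in 3 of 9 (38% of all windows) and the E-box CACGTG in 2 of 9 (6.32%), both of the latter at CDKN2C. The E2F motif TTTNGCGC, the AP-1 motif TGANTCA and the cyclic AMP element TGACGTCA were in none of the 9, against 1.49%, 6.59% and 1.63% of all windows. At rates this low, absence from 9 windows does not set them apart from windows of all genes. These are matches of letters only.

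CDKN2B, which encodes p15, the INK4 inhibitor known for its induction by TGF-beta, changed most. It was read at 161, 158 and 153 TPM in the 4-OHT libraries and at 6.4, 6.4 and 6.62 TPM in DMSO. The replicates were tight, with a coefficient of variation of 2.52% in 4-OHT and 1.99% in DMSO, against medians of 6.53% and 6.56% over genes of at least 5 TPM. On log2(TPM + 1), a scale that understates changes of low genes, it was higher by 4.41 (SE 0.0541, 95% interval 4.28 to 4.53, limma adjusted p = 2.8e-08). That increase ranked 10 of 15272 genes. By level it moved from rank 10526 in DMSO to rank 1057 in 4-OHT among all entries.

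CDKN2A stood at 41.2, 46.4 and 37 TPM in 4-OHT and at 22.8, 19.3 and 19.1 in DMSO. The groups were apart, but by far less than for its neighbour, with a log2 fold change of 0.99 (SE 0.105, 95% interval 0.74 to 1.24, limma adjusted p = 0.000247). In DMSO there was less CDKN2B than CDKN2A transcript, at 0.28, 0.332 and 0.347 CDKN2B per CDKN2A, and in 4-OHT there was more, at 3.91, 3.41 and 4.14. The ratio thus differed 12-fold between the groups (3.58 in log2; exact permutation test, 2-sided, p = 0.10, the smallest that 3 against 3 libraries can give). Because it is taken within a library, this ratio does not depend on a scaling factor between libraries. Reads from the shared stretches could move the CDKN2A entry with CDKN2B, which was not tested.

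**Figure D1:**
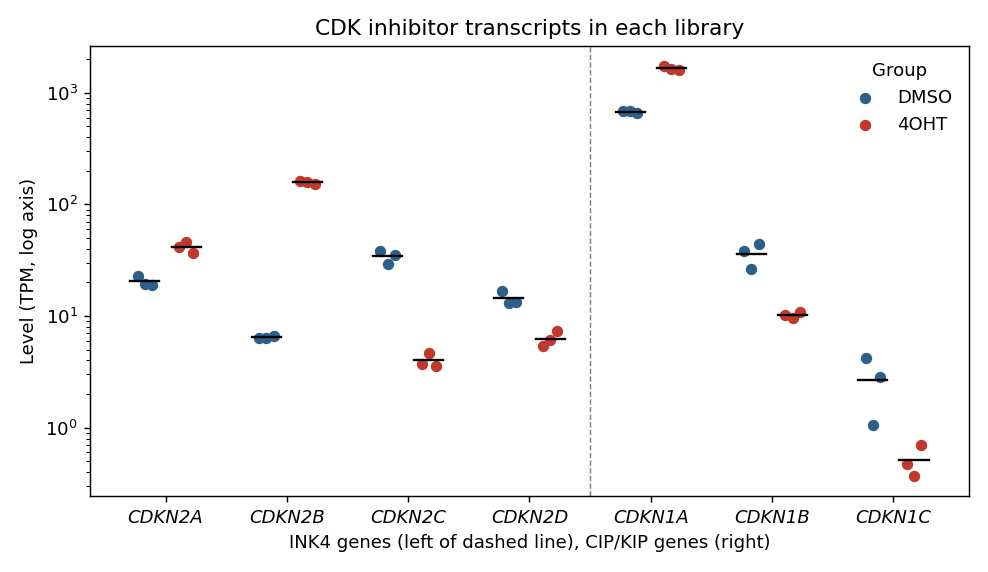
Level of each of the 7 inhibitor genes in TPM (log axis) in the 3 DMSO libraries (blue) and the 3 4-OHT libraries (red), with bars at the group means. CDKN2B moves from about 6.47 to 158 TPM, CDKN1A lies above all others in both groups, and no gene has overlapping groups.

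CDKN2C, which encodes p18, fell most of the 7 on the log2 scale. It was at 3.75, 4.68 and 3.58 TPM in 4-OHT and at 38.1, 29.4 and 35.5 in DMSO, a log2 fold change of -2.82 (SE 0.13, 95% interval -3.13 to -2.51, limma adjusted p = 4.13e-06). Ordered from the largest decrease, it ranked 45 of the genes tested. CDKN2D, which encodes p19 and is expressed in a cell-cycle-dependent way in dividing cells, was at 5.37, 6.1 and 7.32 TPM in 4-OHT and at 16.7, 13.2 and 13.3 in DMSO. Its log2 fold change was -1.09 (SE 0.138, 95% interval -1.41 to -0.76, limma adjusted p = 0.000599).

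The INK4 genes therefore changed places. In DMSO CDKN2C made up 45.3% ± 2.32 (SD, n = 3) of the summed INK4 transcripts and CDKN2B 8.62% ± 0.908. In 4-OHT CDKN2B made up 75.3% ± 1.59 and CDKN2C 1.91% ± 0.231. The share of CDKN2A went from 27% ± 1.33 to 19.8% ± 1.61 although its level was higher. The summed INK4 level was 212, 215 and 201 TPM in 4-OHT and 84.1, 68.3 and 74.6 in DMSO, 2.78-fold apart (log2 difference 1.47, exact permutation test, 2-sided, p = 0.10). The direction rested on CDKN2B: without it the other 3 INK4 genes summed to 50.3, 57.1 and 47.9 TPM in 4-OHT and to 77.7, 61.9 and 67.9 in DMSO, lower in each 4-OHT library than in each DMSO library (log2 difference -0.42, exact permutation test, 2-sided, p = 0.10). That sum was chosen after its values were seen, and under median-of-ratios scaling its groups met, at 52.3, 58.5 and 49.2 TPM against 73.8, 58.5 and 64.4 (log2 difference -0.29, exact permutation test, p = 0.20).

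Set against the kinases they bind, INK4 transcripts passed from the minority to the majority, with the whole CDKN2A entry counted. That entry does not part ARF, which is no INK4 inhibitor, from p16. Whether they are the majority without ARF transcripts was not tested. Per transcript of CDK4 and CDK6 together there were 0.363, 0.39 and 0.38 INK4 transcripts in DMSO and 1.25, 1.17 and 1.31 in 4-OHT, a 3.29-fold difference (1.72 in log2, exact permutation test, 2-sided, p = 0.10). CDKN2B alone came to 0.99, 0.949 and 1.12 transcripts per CDK4 transcript in 4-OHT, and to 0.0282, 0.0378 and 0.0345 in DMSO. These are ratios of transcript levels and say nothing of protein amounts.

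**Figure D2:**
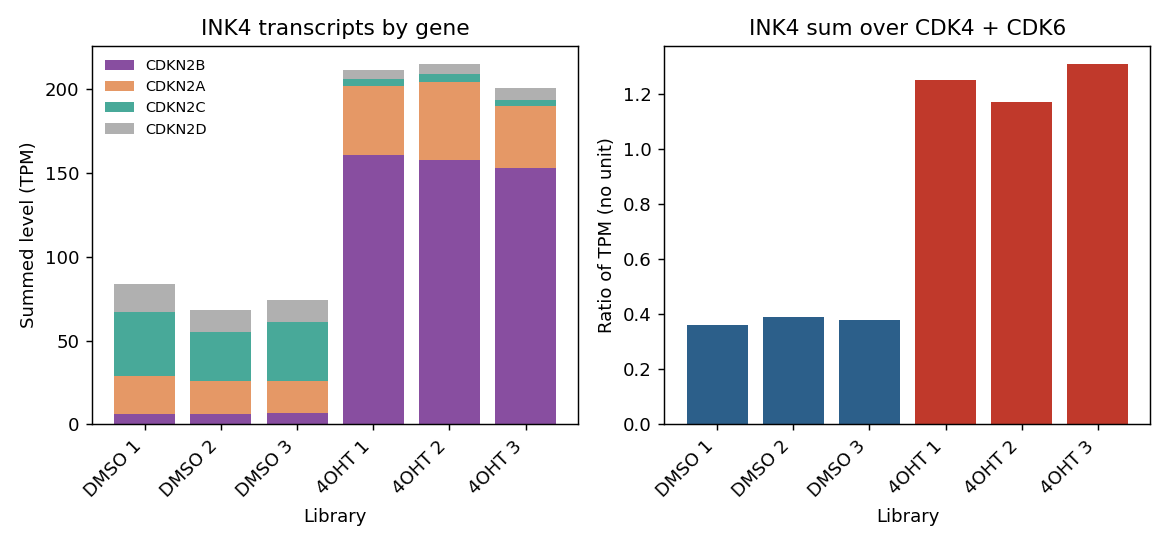
Left, the summed TPM of the 4 INK4 genes in each library, stacked by gene; right, that sum divided by the TPM of CDK4 plus CDK6. The DMSO bars are mostly CDKN2C and CDKN2A and the 4-OHT bars mostly CDKN2B, and the ratio lies between 0.363 and 0.39 in DMSO and between 1.17 and 1.31 in 4-OHT.

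CDKN1A, which encodes p21 and lies on chromosome 6 (36676460 to 36687339), was the most abundant inhibitor in every library. It was at 1723, 1639 and 1614 TPM in 4-OHT and at 693, 681 and 662 in DMSO (log2 fold change 1.29, SE 0.0372, 95% interval 1.20 to 1.38, limma adjusted p = 5.6e-07). Among all entries it ranked 58 by level in 4-OHT and 210 in DMSO. It provided 88.3% ± 0.326 (SD, n = 3) of the summed transcripts of the 7 genes in 4-OHT and 85.6% ± 1.82 in DMSO, so the sum over the family mostly reads CDKN1A. CDKN1A overlaps the antisense RNA DINOL over 146 exonic bases, and DINOL was below 0.5 TPM in every library.

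CDKN1B, which encodes p27, a protein known to be controlled largely by its degradation, fell. It was at 10.3, 9.55 and 10.9 TPM in 4-OHT and at 38.5, 26.2 and 43.8 in DMSO, where the libraries varied by 25% (coefficient of variation). The log2 fold change was -1.69 (SE 0.178, 95% interval -2.11 to -1.27, limma adjusted p = 0.000233). There were 168, 172 and 147 CDKN1A transcripts per CDKN1B transcript in 4-OHT and 18, 26 and 15.1 in DMSO, 8.42-fold apart (3.07 in log2, exact permutation test, 2-sided, p = 0.10). On chromosome 12 the gene runs from 12715058 to 12722371.

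CDKN1C, which encodes p57 and is expressed from the maternal copy of an imprinted region on chromosome 11 (2883213 to 2885773), was the least abundant. It was at 0.469, 0.371 and 0.704 TPM in 4-OHT and at 4.18, 1.05 and 2.86 in DMSO. The DMSO libraries spread by 58.2% of their mean, and the lowest of them came near the highest 4-OHT library. The log2 fold change of -1.19 (SE 0.339, 95% interval -1.99 to -0.39, limma adjusted p = 0.0228) passed the threshold, but the call was lost in 5 of 12 alternatives: without 4-OHT replicate 1 or 2 (adjusted p = 0.0585 and 0.0643), without DMSO replicate 1 or 3 (0.065 and 0.0718), and when genes of any level were tested (0.181). Without DMSO replicate 2 the log2 fold change was -1.57 (adjusted p = 0.00269), and over the alternatives the adjusted p ran from 0.00269 to 0.181.

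The 4 genes that fell shared a detail of the control libraries: in each, DMSO replicate 2 was the lowest of the 3 DMSO libraries. For CDKN2D that library (13.2) was hardly below DMSO replicate 3 (13.3), while for CDKN1B it was 26.2 against 38.5 and 43.8. Leaving it out took the log2 fold change of CDKN1B to -1.90 and that of CDKN2C to -2.92. Genes outside the family could have it lowest too, such as CKS1B (141, 108 and 149 TPM in DMSO 1 to 3). MZT2A (94.1, 73.8 and 74.6) did so as well, but it was picked for its nearness to CDKN2D over these same libraries. Its pattern is therefore no separate example. Others did not, such as TK1 (190, 175 and 172). The share of all genes with this library lowest was not computed, so the detail cannot be read as a trait of the 4 inhibitor genes. The part of this library in the spread was not tested.

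The order of the 7 genes by level differed between the groups. In 4-OHT it ran CDKN1A, CDKN2B, CDKN2A, CDKN1B, CDKN2D, CDKN2C and CDKN1C, and the libraries of neighbours in that order did not overlap. In DMSO it ran CDKN1A, CDKN1B, CDKN2C, CDKN2A, CDKN2D, CDKN2B and CDKN1C. There CDKN1B (36.1 ± 9.03, SD, n = 3) and CDKN2C (34.3 ± 4.49) overlapped and cannot be ordered, and the other neighbours did not overlap.

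**Figure D3:**
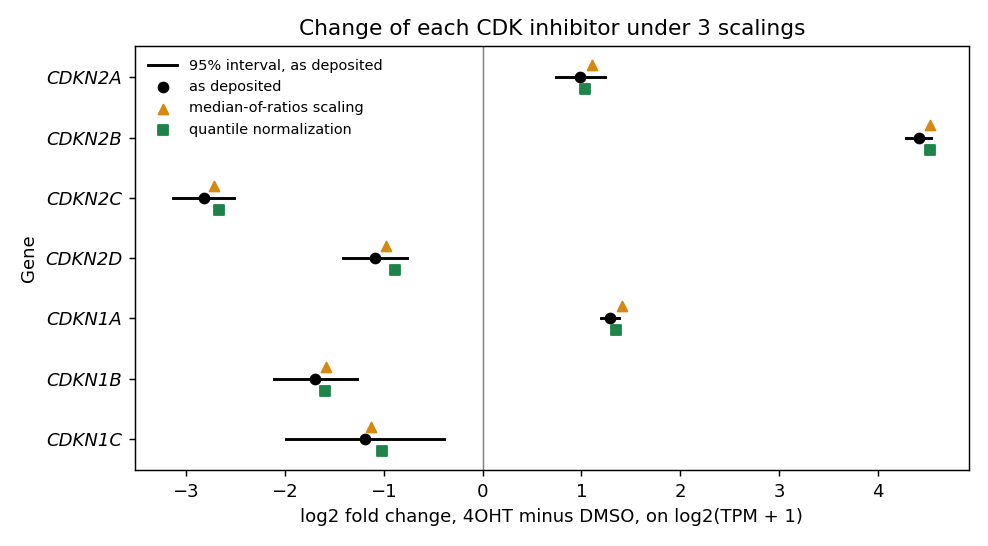
Log2 fold change (4-OHT minus DMSO, on log2(TPM + 1)) of each inhibitor gene as deposited (black, with its 95% interval), after median-of-ratios scaling (orange) and after quantile normalization (green). CDKN2B, CDKN1A and CDKN2A lie above 0 and the other 4 below 0 under all 3, and the interval of CDKN1C is the widest.

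The balance of calls depended on how the libraries were scaled. Of all called genes 60.2% were lower as deposited, 47% after median-of-ratios scaling, which moved the log2 fold changes up by a median of 0.11, and 49.8% after quantile normalization (median shift 0.13). The directions of the 7 inhibitor genes were the same under each. The libraries expressed all 10 fibroblast markers looked at, which summed to between 19101 and 20826 TPM. The summed levels of other cell types' markers were 32.8 to 52.5 TPM for epithelial genes, mostly KRT10, with KRT5 and KRT14 below 0.1 and KRT1 listed at 0. They were 0.405 to 1.48 for endothelial genes, 59.4 to 90.5 for immune genes, mostly the lysosomal CD68, and 0.647 to 2.64 for melanocyte genes, with TYR and DCT listed at 0. In bulk RNA a smaller share of cells that express a gene and less of its RNA per cell cannot be told apart.

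The targets of the inhibitors were described next, for lists of genes chosen by role. The median log2 fold change over all genes tested was -0.09, and 19.8% of them were called higher and 29.9% lower. Of 12 tested cyclins and CDKs, 3 rose and 6 fell (median -0.71). CDK4, the main INK4 target by level, was at 163, 166 and 137 TPM in 4-OHT and at 227, 169 and 192 in DMSO (-0.33, limma adjusted p = 0.0551), and passed the test only under quantile normalization (0.0448) and without DMSO replicate 2 (0.0227; 0.0227 to 0.363 over the alternatives). CDK6 was far lower, at 6.25, 17.6 and 17.2 TPM in 4-OHT against 4.12, 6.19 and 4.32 (1.22, limma adjusted p = 0.0285). Its first 4-OHT library barely exceeded the highest DMSO library, and the call was lost when genes of any level were tested (0.248), without 4-OHT replicate 2 or 3 (0.0862 and 0.0875) and without DMSO replicate 1 or 3 (0.0826 and 0.0811; 0.0006 to 0.248 over the alternatives).

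The D-type cyclins, partners of CDK4 and CDK6, did not fall. CCND2 was at 16.2, 17.8 and 18 TPM in 4-OHT and below 1 in each DMSO library (0.589, 0.343 and 0.665; log2 fold change 3.58, limma adjusted p = 1.36e-06). CCND1, which is close to CDKN1A in level, was 2.18-fold higher. CCND3 was at 75.4 ± 15.1 against 52.7 ± 9.48 TPM (SD, n = 3; 0.50, limma adjusted p = 0.0547) and was called after median-of-ratios scaling (0.0278), without 4-OHT replicate 2 (0.013) and with the replicate number in the fit (0.00158), over a range of 0.00158 to 0.371.

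CDK2, the kinase that CIP/KIP proteins inhibit, fell from 70.1 ± 2.8 to 32.3 ± 0.853 TPM (-1.09, limma adjusted p = 5.82e-06). CDKN1A thus stood at 53.4, 52.2 and 48.7 transcripts per CDK2 transcript in 4-OHT and at 9.46, 9.92 and 9.69 in DMSO. Of its cyclins, CCNE2 (-2.05) and CCNA2 (-2.68) fell, while CCNE1 was at 14.7 ± 1.02 against 13.7 ± 1.26 (0.10, limma adjusted p = 0.43). The mitotic kinase CDK1 fell 5.52-fold and its cyclins CCNB1 and CCNB2 fell 4.52-fold and 5.28-fold. CCNA1, the germline A-type cyclin, averaged below 1 TPM and was not tested.

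Downstream, 2 of 13 genes of the RB and E2F family rose and 6 fell (median -0.32), beside 19.8% and 29.9% of all genes tested. RB1 itself was at 38.5 ± 2.89 against 41.7 ± 1.67 TPM (-0.11, limma adjusted p = 0.224); it was named with its values known. The activating factors E2F1 (3.62 ± 1.31 against 17 ± 0.365, log2 fold change -2.00) and E2F2 (0.123 ± 0.044 against 2.32 ± 0.229, log2 fold change -1.56) fell. The activating factor E2F3 was not called, at 18.8 ± 0.97 against 18.5 ± 1.6 (0.03, limma adjusted p = 0.826; chosen after its values were seen). E2F8, a repressing member, fell (0.0993 ± 0.0586 against 2.52 ± 0.317). E2F7, also a repressing member and the larger of the increases, rose from 17.7 ± 0.644 to 39 ± 0.903 (1.10, limma adjusted p = 9e-06; chosen after its values were seen). All 24 E2F target genes listed fell (median -1.98), beside 29.9% of all genes tested. On log2(TPM + 1) the decreases were largest for TK1 (-2.92), TYMS (-2.50) and GINS2 (-2.44), the last a part of the replicative helicase.

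Of 15 genes for the degradation of p27 and p21, 2 rose and 7 fell (median -0.21), beside 19.8% and 29.9% of all genes tested. SKP2, which marks p27 for destruction, went from 49.9, 49.7 and 49.6 TPM in DMSO to 22.1, 21.7 and 22.4 in 4-OHT (-1.14, limma adjusted p = 3.99e-06; chosen after its values were seen). Its cofactor CKS1B went from 133 ± 21.6 to 32.7 ± 4.01 (-1.98). DTL, which directs the destruction of p21, fell 5.07-fold and CDC20, an activator of the anaphase-promoting complex, fell 6.03-fold. The scaffold subunits CUL1 (0.03) and CUL4A (0.01; both chosen after their values were seen) were not called. The scaffold subunit CUL4B was called lower (-0.22, limma adjusted p = 0.0131) and DDB1 higher (0.25, limma adjusted p = 0.00839; both chosen after their values were seen). SKP2, CKS1B, DTL and CDC20 are also known as genes of dividing cells.

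**Figure D4:**
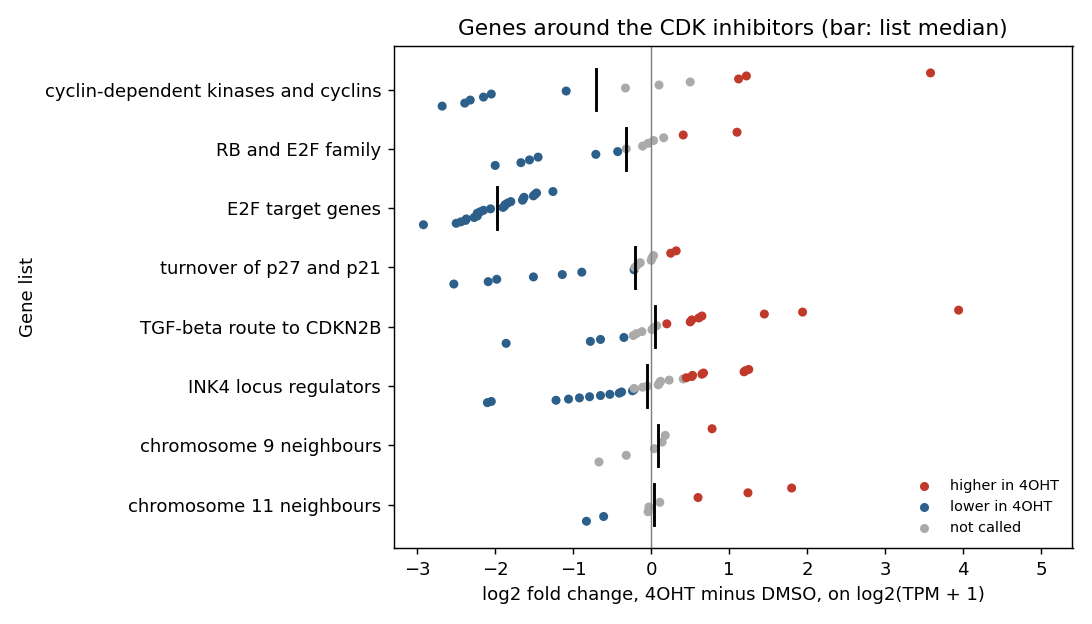
Log2 fold change of every tested gene of 8 lists around the inhibitors, red where called higher, blue where called lower and grey where not called, with a black bar at each list's median. All 24 E2F target genes lie below 0, while the TGF-beta route and the regulators of the INK4 locus hold calls in both directions.

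Of 18 genes of the TGF-beta route to CDKN2B, 8 rose and 4 fell (median 0.05), beside 19.8% and 29.9% of all genes tested. The activin subunit INHBA was at 170, 176 and 174 TPM in 4-OHT and at 8.26, 11.8 and 11.3 in DMSO (3.94, limma adjusted p = 7.34e-07). The ligand TGFB2 was 4.08-fold higher, and SMAD7, a feedback inhibitor of the route, 2.99-fold higher (chosen after its values were seen). SMAD3, a factor that carries the signal to the nucleus, was 3.84-fold lower (12 ± 0.862 against 46 ± 0.927). MYC, which with ZBTB17 (MIZ1) is known to repress CDKN2B, was at 50.1 ± 7.26 against 32.4 ± 3.49 (0.61, limma adjusted p = 0.00465; 0.0645 when genes of any level were tested), and ZBTB17 was at 23.2 ± 1.03 against 23.1 ± 2.2 (0.01, not called; both chosen after their values were seen).

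Among 29 chromatin proteins and transcription factors known to act on the INK4 locus, 8 rose and 12 fell (median -0.05). Of all genes tested 19.8% rose and 29.9% fell. Under median-of-ratios scaling 13 of the list rose and 10 fell. EZH2, the Polycomb methyltransferase that marks the silent locus, fell from 32.3 ± 1.4 to 6.81 ± 0.72 TPM (-2.10, limma adjusted p = 3.33e-06). ID3, an inhibitor of basic helix-loop-helix factors, was 4.31-fold lower and FOS, an AP-1 subunit, 2.41-fold higher. The Polycomb reader CBX7 was at 3.17 ± 0.271 against 6.23 ± 0.883 (-0.79). The H3K27 demethylase KDM6B was at 12.2 ± 0.735 against 7.31 ± 0.954 (0.67; both chosen after their values were seen). BMI1, the Polycomb protein best known for silencing CDKN2A, was at 42.2 ± 1.39 against 36 ± 3.66 (0.23, limma adjusted p = 0.0527; chosen after its values were seen). It was called higher after median-of-ratios scaling (0.0115) and quantile normalization (0.0429), with the filter raised to 5 TPM (0.0478) and without DMSO replicate 3 (0.0262), over a range of 0.0115 to 0.246.

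Around CDKN2A and CDKN2B, 1 of 6 tested neighbours rose and none fell (median 0.09), beside 19.8% and 29.9% of all genes tested. MTAP, an enzyme of methionine salvage, went from 17.1, 18.2 and 19.7 TPM in DMSO to 32.3, 30.6 and 33.2 in 4-OHT (0.78, limma adjusted p = 0.00014). CDKN2B-AS1, the antisense RNA ANRIL that starts next to the ARF start and runs across CDKN2B, was at 0.424, 0.74 and 1.46 TPM in 4-OHT and at 1.35, 2.43 and 2.06 in DMSO. The groups overlapped, and its log2 fold change of -0.67 passed the test only without 4-OHT replicate 3 (-0.89, limma adjusted p = 0.0276; with all libraries 0.0673). It shares 341 exonic bases with CDKN2A and none with CDKN2B, and whether reads were counted by strand is not given in the sources used here. FOCAD (0.14) and KLHL9 (0.18) were not called as deposited, and both were called after median-of-ratios scaling (0.26 and 0.29, limma adjusted p = 0.0084 and 0.0258), FOCAD also under quantile normalization (0.0254). IFNE (-0.32) was not called, and neither was MIR31HG (0.04). CDKN2A-DT, DMRTA1 and ELAVL2 were below 0.5 TPM in every library.

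**Figure D5:**
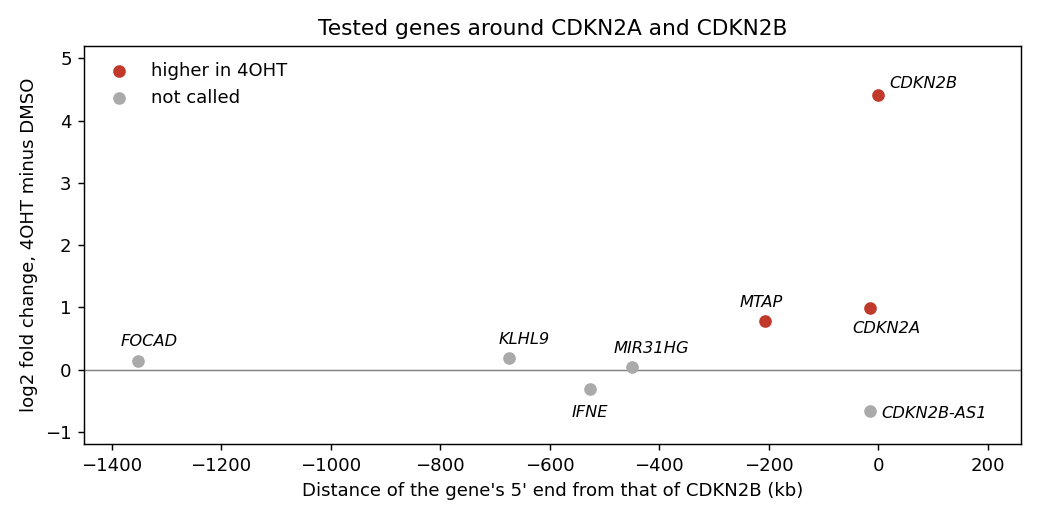
Log2 fold change of the tested genes around CDKN2A and CDKN2B, placed by the distance of each gene's 5′ end from that of CDKN2B in kb. CDKN2B (4.41), CDKN2A (0.99) and MTAP (0.78) were called higher (red), and the other genes were not called (grey).

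In the imprinted region around CDKN1C, 3 of 8 tested neighbours rose and 2 fell (median 0.04), beside 19.8% and 29.9% of all genes tested. IGF2, a growth factor expressed from the paternal copy, was at 21.9, 24.4 and 22.2 TPM in 4-OHT and at 8.91, 4.19 and 5.21 in DMSO (1.80, limma adjusted p = 0.000542). PHLDA2, expressed like CDKN1C from the maternal copy, was 2.37-fold higher (358 ± 15.4 against 151 ± 9.79), and SLC22A18 1.84-fold lower (11.2 ± 1.37 against 20.6 ± 0.904). CARS (0.60) rose and CD81 (-0.61) fell. NAP1L4 (-0.03), TSSC4 (0.11) and OSBPL5 (-0.04) were not called. KCNQ1OT1, the antisense RNA that silences the region on the paternal copy, was between 0.0788 and 0.15 TPM in every library, and KCNQ1, TSPAN32 and H19 were also below the level for testing.

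For each inhibitor the genes with the most similar profile over the 6 libraries were found by the Euclidean distance between values of log2(TPM + 1) after subtraction of each gene's mean, among 10232 genes of at least 5 TPM (10233 for CDKN1C). CDKN2B was nearest to the Wnt receptor FZD8 (distance 0.141), listed at 0 in all DMSO libraries and at 20.3, 20.5 and 21.8 TPM in 4-OHT, and to PWWP3B (0.362). The nearness of FZD8 and PWWP3B to CDKN2B depends on the pseudocount of 1 TPM. With a pseudocount of 0.1 the log2 fold changes of FZD8 and PWWP3B were both larger than that of CDKN2B (4.58). Distances with that pseudocount were not computed. CDKN2A was nearest to the ephrin receptor EPHA2 (0.168) and the steroid dehydrogenase HSD17B14 (0.171), and CDKN1A to the integrin ITGB5 (0.0624) and the lymphatic growth factor VEGFC (0.0901). CDKN2C was nearest to the oxytocin receptor OXTR (0.306) and to CDKN3 (0.307), a phosphatase that acts on CDKs. CDKN2D was nearest to MZT2A (0.165) and LRRC45 (0.183), both of the centrosome, CDKN1B to FMNL1 (0.287) and SMCO4 (0.311), and CDKN1C to the nuclear envelope gene NRM (0.486), whose own call was lost in 9 alternatives, and MIR1244-3 (0.523). With only 2 groups, such nearness mostly restates a like change between them on log2(TPM + 1). It also takes in differences within a group. The 2 nearest genes of CDKN2D, CDKN1B and CDKN1C all had DMSO replicate 2 as their lowest DMSO library, like these inhibitors themselves. An example is FMNL1, at 8.24, 6.45 and 10.4 TPM in DMSO 1 to 3. Of the genes nearest to CDKN2C, CDKN3 had that library lowest and OXTR did not.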

How the data were processed

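Bulk RNA-seq libraries came from 1 µg of TRIzol-extracted RNA and a KAPA RNA HyperPrep kit, per the labels' protocols. The values are TPM as deposited by the authors, with 59050 entries named by symbol, and the libraries sum to between 998367 and 998843. Trim Galore 0.6.6, STAR and StringTie with GRCh38 are named in the submitters' processing notes, without the annotation or strand setting. In the column of DMSO replicate 3, 1 value below 0 was set to 0. TPM carry no read depth, so no counting error or detection limit was computed.

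The 15272 genes that averaged 1 TPM or more were compared on log2(TPM + 1) with limma 3.58.1 in R 4.3.3 (lmFit and eBayes with a variance trend, 2-sided, no covariates). Adjusted p-values are Benjamini-Hochberg values for the whole table, with a threshold of 0.05. Summed levels and ratios were compared by exact permutation tests over libraries. The labels do not say whether replicates were separate cultures, so a p-value here measures the spread between these libraries only, which may be technical. Alternatives changed 1 choice each: the scaling, the pseudocount (0.1), the filter (none, or 5 TPM), the variance trend, a replicate block, or leaving out each library. The 7 genes and the gene lists were chosen with earlier results of these data known. Named were the 7 genes, all listed cyclins, CDKs and neighbours, the 3 largest called changes of each other list and the 2 nearest profiles of each inhibitor. Other genes are marked as chosen after their values were seen. Some items are not reported here. Positions come from GENCODE 29, promoters from RefSeq, and coding sequences were compared with blastn 2.17.0. Python 3.11.15, pandas 2.3.3, numpy 2.4.6 and matplotlib 3.10.9 were used.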

Additional observations from a re-analysis of the deposited data

How the results depend on the processing

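All 7 inhibitor genes kept their direction under every alternative run, and 6 of them, all but CDKN1C, kept their call. CDKN1C lost it with no filter on low values (log2 fold change -1.19) and on leaving out any 1 of 4 libraries (-1.17 to -0.90), and could not be tested at a mean of at least 5 TPM. Leaving out single libraries gave 6 to 7 called inhibitor genes, log2 fold changes of CDKN1C from -1.57 (DMSO replicate 2 left out, call kept) to -0.90, and 6637 to 6838 called genes in all. The summed INK4 difference rose from 1.47 to 1.59 under median-of-ratios scaling, the CIP/KIP sum from 1.22 to 1.34, and to 1.28 under quantile normalization, and the INK4 to CDK4 and CDK6 ratio from 1.72 to 1.80 under quantile normalization. Of 66 other named genes followed through the alternatives, 57 kept their call or lack of one under those run for them and 9 did not. No called change among them reversed. E2F3, CUL4B, DDB1 and SKP1 were named but not followed through the alternatives.

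Replicate numbers are shared between the groups. Over all 15272 genes tested, same-numbered libraries showed little common deviation (r = 0.0475, 0.00549 and 0.00664), and not every library correlated best with its own number. Single genes did follow the replicate number: MIR31HG was low in replicate 3 of either group, and CCND3 was lowest in replicate 2 of either group. Whether same-numbered libraries share a source was not tested. With the replicate number as a block, 7065 genes were called against 7579, and all 7 inhibitor genes remained called, CDKN2B with a log2 fold change of 4.41. Read depth is unknown, which limits what can be said of CDKN1C and other genes near 1 TPM.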

Other observations

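MIR31HG, a long RNA on the same arm of chromosome 9 as CDKN2A, was at 6.92 and 6.03 TPM in 4-OHT replicates 1 and 2 and at 6.96 and 6.51 in the same DMSO replicates, but at 0.192 and 0.0174 in replicate 3 of either group. SKP1, a subunit of the ligase that degrades p27, stood at 375 TPM in DMSO replicate 1 and 212 in 4-OHT replicate 3, against 99.9 to 118 in the other libraries (chosen after its values were seen).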
